A study of Mus musculus with 4 samples.

Results

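Pericytes are the cells that sit on the outside of brain capillaries, inside the basement membrane and in contact with the endothelium. They belong with the smooth muscle cells of arterioles to the mural cells, depend on PDGF-B from endothelial cells and its receptor PDGFR-β on their own surface, and are known for supporting the blood-brain barrier and for adjusting capillary tone. Genes used to recognise them encode parts of a potassium channel that senses cell energy, a regulator of G protein signaling, surface proteins and an adhesive glycoprotein. Here 8 such genes, Rgs5, Kcnj8, Abcc9, Cspg4, Atp13a5, Vtn, Higd1b and Anpep, were followed by symbol, and all 8 were found among the 24873 genes of the RNA-Seq table.

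The libraries came from sorted cerebral cells of mice carrying Cdh5cre and Mgpflox/flox, in which the promoter of VE-cadherin, an endothelial gene, drives a recombinase that tamoxifen switches on and that deletes Mgp, the gene of a BMP inhibitor. Both groups carried these alleles. The 2 tamoxifen libraries came from mice that were given 5 daily injections of 75 mg/kg starting at an age of 10 weeks and were examined on day 9, and the 2 control libraries from littermates without tamoxifen, so the effects of the drug and of the deletion cannot be told apart here. In a figure legend of the study, each RNA-Seq row is an independent group with cells pooled from 3 mice. Its methods say only that 3 mice of each group were used. The legend was taken to hold for each library. On that reading the p-values measure the spread between pools and not between single mice. The study names the cells as CD31+CD45-, whereas the labels name them by a tdTomato reporter. CD31 is an endothelial surface protein that pericytes lack, and the sort was not directed at pericytes.

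The libraries held 35387438 to 49799321 reads on genes, and the second library was the deeper of its group in both groups. Values are normalized counts, meaning reads divided by the authors' factor for the library, and fold changes are on the log2(normalized count + 1) scale, on which changes of weakly expressed genes come out too small. Mgp stood at 1094 and 1352 normalized counts without tamoxifen and at 945 and 909 with it (log2 fold change -0.39, standard error 0.18, adjusted p = 0.0986 by limma), lower in both tamoxifen libraries but without passing the test. The study cites public data in which brain pericytes express Mgp strongly and brain endothelial cells moderately. The part of pericytes in these Mgp values was not tested. Ptprc, which encodes the CD45 that the sort excludes, stood at 50.7 and 83.9 without tamoxifen and at 1423 and 1119 with it. A gene was called when its adjusted p was under 0.05 and its log2 fold change over 1 in size, and 44.7% of the 20485 tested genes were called, 28.6% higher and 16.0% lower in the tamoxifen libraries. All 10 endothelial markers checked were called lower, and their summed level fell from between 939654 and 963134 normalized counts in the control libraries to between 82499 and 163409 in the tamoxifen libraries. In bulk samples like these, a different number of pericytes, a different amount of RNA per pericyte and RNA of these genes from other cells cannot be told apart.

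Of the 8 pericyte genes, 2 were called higher (Anpep and Abcc9) and 0 lower, where 28.6% and 16.0% of all tested genes were, so the share called higher was close to that background. Their median log2 fold change was 0.64, against 0.05 over all tested genes. Single libraries carried this gap, since the median was 0.04 without tamoxifen library 2 and 0.19 without control library 1, but 1.08 without control library 2 and 1.23 without tamoxifen library 1. In 3 of the 8 (Anpep, Abcc9 and Cspg4) both tamoxifen libraries lay above both control libraries, as they did for 43.1% of tested genes. In the other 5 the groups overlapped, and this was so for 17.7% of tested genes. None of the 8 lay below the controls in both tamoxifen libraries, which 39.2% of tested genes did.

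**Figure D1:**
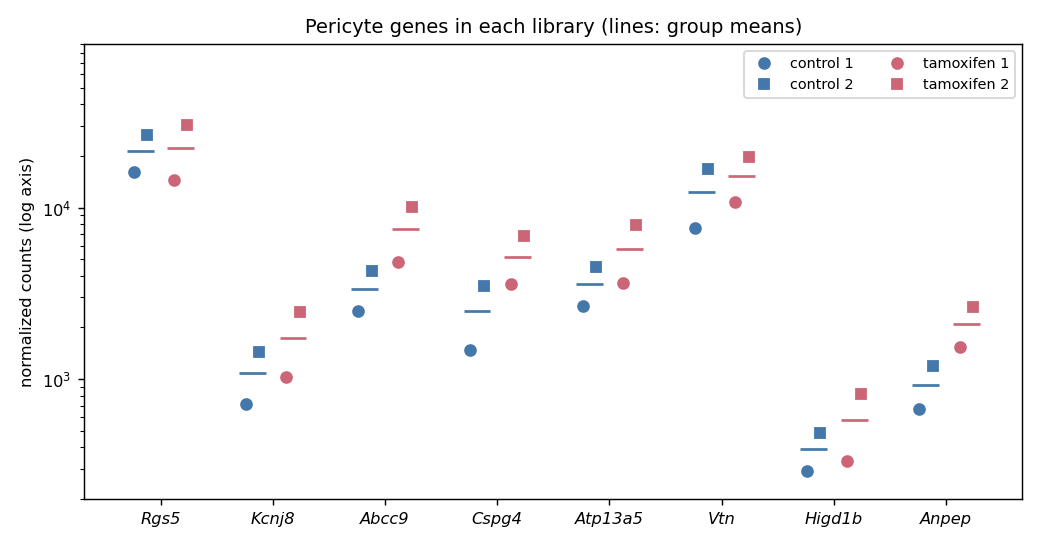
Normalized counts (log axis) of the 8 pericyte genes in each library, control in blue and tamoxifen in red, with circles for the first and squares for the second library of a group and lines at the group means. The second library is the higher one in both groups for every gene, and 3 genes (Abcc9, Cspg4 and Anpep) have no overlap between groups.

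Kcnj8 and Abcc9 encode the pore-forming subunit and the sulfonylurea receptor subunit of the ATP-sensitive potassium channel of vascular mural cells, which opens when cell energy is low and hyperpolarises the cell. The genes are neighbours on chromosome 6 of GRCm39, Kcnj8 from 142510563 to 142517830 and Abcc9 from 142533588 to 142648571, both on the minus strand and 15757 bases apart. The stretches of 250 bases before their RefSeq start sites (GRCm38.p6, printed on the gene's strand, 5′ to 3′) are shown because the pair shares a channel and a locus. Capitals mark matches to the motifs searched, which are listed with the other promoters.
Kcnj8 promoter (chr6:142571615-142571864, strand -): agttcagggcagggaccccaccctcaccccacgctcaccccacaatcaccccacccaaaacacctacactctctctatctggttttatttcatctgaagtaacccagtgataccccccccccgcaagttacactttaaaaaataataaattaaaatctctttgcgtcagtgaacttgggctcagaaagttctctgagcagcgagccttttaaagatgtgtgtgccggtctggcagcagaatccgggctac
Abcc9 promoter (chr6:142702275-142702524, strand -): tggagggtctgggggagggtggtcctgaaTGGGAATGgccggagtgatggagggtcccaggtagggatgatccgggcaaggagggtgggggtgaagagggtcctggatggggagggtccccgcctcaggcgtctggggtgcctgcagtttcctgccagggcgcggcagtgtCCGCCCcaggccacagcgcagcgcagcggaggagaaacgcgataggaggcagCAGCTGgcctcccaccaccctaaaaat
Kcnj8 held none of the searched motifs and had a GC content of 49.2%, whereas Abcc9 had 4 matches and 66.8% GC, against a median of 52.4% over 32851 promoters.

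Kcnj8 stood at 712 and 1444 normalized counts without tamoxifen and at 1029 and 2459 with it. The groups overlapped, because control library 2 lay above tamoxifen library 1. The log2 fold change came to 0.65 (standard error 0.44, limma adjusted p = 0.239), with a 95% interval from -0.38 to 1.68. The value rested on single libraries, being 0.14 without control library 1, 0.02 without tamoxifen library 2 and 1.28 without tamoxifen library 1, none of them called. Without control library 2 it was 1.16 and the gene was called (limma, adjusted p = 0.00343).

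Abcc9 stood at 2479 and 4249 normalized counts without tamoxifen and at 4791 and 10135 with it. Both tamoxifen libraries lay above both controls, though the lower tamoxifen library was close to the higher control. The log2 fold change came to 1.10 (standard error 0.37, limma adjusted p = 0.0341). Over the alternatives that kept every library, the adjusted p ran from 2.31e-07 to 0.142. The lowest was from limma with the replicate numbers as a block, a pairing not adopted here, and the highest from limma without a variance trend. The call was lost without control library 1 (log2 fold change 0.71), without tamoxifen library 1 (1.64, adjusted p = 0.0985 with limma) and without tamoxifen library 2 (0.56), as well as without the filter on low counts (adjusted p = 0.0840) and without a variance trend (adjusted p = 0.142). Per kilobase of exon, the ratio of Kcnj8 to Abcc9 levels was 0.885 and 1.05 in the controls and 0.661 and 0.747 under tamoxifen, lower in both of the latter.

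The related channel subunit genes of pancreatic beta cells and neurons, Kcnj11 and Abcc8, are also neighbours, 3758 bases apart on chromosome 7. Kcnj11 stood at 1.37 and 21.3 normalized counts without tamoxifen and at 35.8 and 130.1 with it, and was called higher (log2 fold change 3.26, standard error 1.10, limma adjusted p = 0.0344). Abcc8 had 1.37 and 43.8 in the controls and 27.1 and 115 in the tamoxifen libraries, with overlapping groups (2.47, adjusted p = 0.142 with limma). A single read stood behind each value of 1.37, and both genes remained far below Kcnj8 and Abcc9 in every library.

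Rgs5 encodes a regulator of G protein signaling that speeds the return of active Gα subunits to rest, and it is among the genes most often used to mark brain pericytes. It lies on chromosome 1 of GRCm39 from 169483036 to 169524887 on the plus strand. Rgs5 stood at 16212 and 26543 normalized counts without tamoxifen and at 14466 and 30134 with it. The tamoxifen values lay on either side of the control values. The log2 fold change came to 0.01 (standard error 0.38, limma adjusted p = 0.985), and the 95% interval from -0.87 to 0.89 leaves room for changes of either sign. Its direction turned without control library 1 (-0.35) and without tamoxifen library 2 (-0.52). The value also depended on the scaling, being 0.48 with equal totals and 0.79 after quantile normalization, not called in either. Rgs4, a related regulator that pericytes also express, had a log2 fold change of 0.22 (adjusted p = 0.527 with limma) with overlapping groups.

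Cspg4 and Anpep encode the surface proteins NG2, a chondroitin sulfate proteoglycan, and CD13, a membrane aminopeptidase. Neither is restricted to pericytes, since NG2 also marks oligodendrocyte precursors and CD13 is found on myeloid cells and fibroblasts. The study also reports NG2 staining in CD31+ endothelial cells of the malformations, at a later day after tamoxifen than these libraries. That is protein, and the part of such cells in the Cspg4 values was not tested. Cspg4 lies on chromosome 9 of GRCm39 from 56772317 to 56807187 (plus strand) and Anpep on chromosome 7 from 79471551 to 79510807 (minus strand).

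Cspg4 stood at 1471 and 3493 normalized counts without tamoxifen and at 3573 and 6790.0 with it. Tamoxifen library 1 lay only just above control library 2. The log2 fold change of 1.12 (standard error 0.42, limma adjusted p = 0.0517) did not pass. Over the alternatives that kept every library, the adjusted p ran from 6.82e-08 to 0.179. The lowest was from limma with the replicate numbers as a block, a pairing not adopted here, and the highest from limma without a variance trend. Of all 14 alternatives, 8 called the gene. Among these were edgeR's quasi-likelihood test (adjusted p = 0.0262), DESeq2 (adjusted p = 0.0181) and the fit without control library 2 (log2 fold change 1.74), whereas leaving out control library 1 gave 0.50 and leaving out tamoxifen library 2 gave 0.66. Of 8 markers of oligodendrocyte precursors, 7 were called higher and Gpr17 lower, and their summed level was 3701 to 4230 normalized counts in the control and 24609 to 50603 in the tamoxifen libraries. Ptprz1 was the highest of them in the tamoxifen libraries, at 14320 and 38626, and made up most of the sum there. Pdgfra, another of the 8, was also counted among the fibroblast markers. No marker of the precursor list was at 0. Their part in the Cspg4 values was not tested. Cspg5, a brain proteoglycan of a different family that shares the name series, had 504 and 782 normalized counts in the controls and 5111 and 11825 in the tamoxifen libraries and was called higher (log2 fold change 3.63, adjusted p = 0.00016 with limma).

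Anpep stood at 667 and 1184 normalized counts without tamoxifen and at 1545 and 2643 with it. The groups did not overlap. It had the largest change of the 8 genes in this fit, a log2 fold change of 1.18 (standard error 0.33, limma adjusted p = 0.0161). Over the alternatives that kept every library, the adjusted p ran from 5.05e-08 to 0.0922. The lowest was from limma with the replicate numbers as a block, a pairing not adopted here, and the highest from limma without a variance trend. The call was lost without control library 1 (log2 fold change 0.77), tamoxifen library 1 (1.57) or tamoxifen library 2 (0.80), and in the fit without a variance trend (adjusted p = 0.0922 with limma). All 10 neutrophil markers were called higher, with a summed level of 303 to 333 normalized counts in the control libraries and 84144 to 112989.9 in the tamoxifen libraries. S100a9 was the highest of them, and Ly6g was at 0 in both control libraries. All 10 fibroblast markers were called higher too, from a sum of 4431 to 5118 up to 81958 to 93397, with Col1a1 the highest in the tamoxifen libraries and Dpt at 0 in both controls. Of 10 microglia and macrophage markers 7 were called higher, from a sum of 1603 to 2963 up to 4694 to 5355, with Csf1r the highest and none at 0. Their part in the Anpep values was not tested. Lnpep, another membrane aminopeptidase, was lower in both tamoxifen libraries but not called (log2 fold change -0.51, adjusted p = 0.0527 with limma), and Enpep, the glutamyl aminopeptidase of mural cells, had 0.25 with overlapping groups (adjusted p = 0.517).

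Vtn encodes vitronectin, an adhesive glycoprotein that pericytes secrete and that binds αv integrins and the urokinase receptor. The gene lies on chromosome 11 of GRCm39 from 78388717 to 78393156 on the plus strand. It stood at 7632 and 16895 normalized counts without tamoxifen and at 10766 and 19724 with it. The groups overlapped, with tamoxifen library 1 between the controls. The log2 fold change came to 0.36 (standard error 0.41, limma adjusted p = 0.468), with a 95% interval from -0.58 to 1.30, and it was -0.21 without control library 1 and -0.08 without tamoxifen library 2. Of 5 genes for vitronectin receptors, the integrin genes Itgb5, Itgb3 and Itgav were called higher, against 28.6% of all tested genes, with log2 fold changes of 1.72 for Itgb5 and 1.47 for Itgb3 (adjusted p = 0.00061 and 0.000357 with limma). Itgav stood at 2518 and 2056 normalized counts without tamoxifen and at 5231 and 6545 with it. The other receptor genes were not called, Itgb1 having a log2 fold change of -0.87 and Plaur (the urokinase receptor) of -0.15.

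Atp13a5 encodes a P5B-type transport ATPase and marks pericytes of the central nervous system. It lies on chromosome 16 of GRCm39 from 29049416 to 29197576 on the minus strand, 16446 bases from its relative Atp13a4. Atp13a5 stood at 2685 and 4504 normalized counts without tamoxifen and at 3633 and 7905 with it. The groups overlapped through tamoxifen library 1. Its log2 fold change came to 0.62 (standard error 0.37, limma adjusted p = 0.185), with a 95% interval from -0.25 to 1.49. It was 0.25 without control library 1 and 0.06 without tamoxifen library 2, but 0.997 without control library 2 and 1.18 without tamoxifen library 1, and was called in none of these fits. The neighbour Atp13a4 had 131 and 144 normalized counts in the controls and 1531 and 2507 in the tamoxifen libraries and was called higher (log2 fold change 3.82, standard error 0.27, limma adjusted p = 3.9e-05). Of the other family members, Atp13a1 had -0.61, Atp13a2 -0.59 and Atp13a3 0.42, and none was called.

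Higd1b encodes a small mitochondrial membrane protein of the hypoxia-inducible domain family. It lies on chromosome 11 of GRCm39 from 102726404 to 102735661 on the plus strand. Higd1b was the lowest of the 8 genes, at 292 and 486 normalized counts without tamoxifen and 332 and 818 with it. Tamoxifen library 1 lay between the controls. Its log2 fold change came to 0.47 (standard error 0.44, limma adjusted p = 0.384), with a 95% interval from -0.55 to 1.49, and its sign turned under quantile normalization (-0.25) and without tamoxifen library 2 (-0.18), while it was 0.10 without control library 1, 0.83 without control library 2 and 1.12 without tamoxifen library 1. Its exons share 768 bases with those of the splicing factor gene Eftud2 on the other strand, which had 8937 to 11895 normalized counts. The study names a stranded library kit. The sources used here do not say whether reads were counted by strand, so the Higd1b values are uncertain. Abcc9 and Anpep share 158 and 52 exon bases with antisense transcripts that the table does not list. The relatives Higd1a and Higd2a had log2 fold changes of -0.01 and -0.76, and neither was called.

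**Figure D2:**
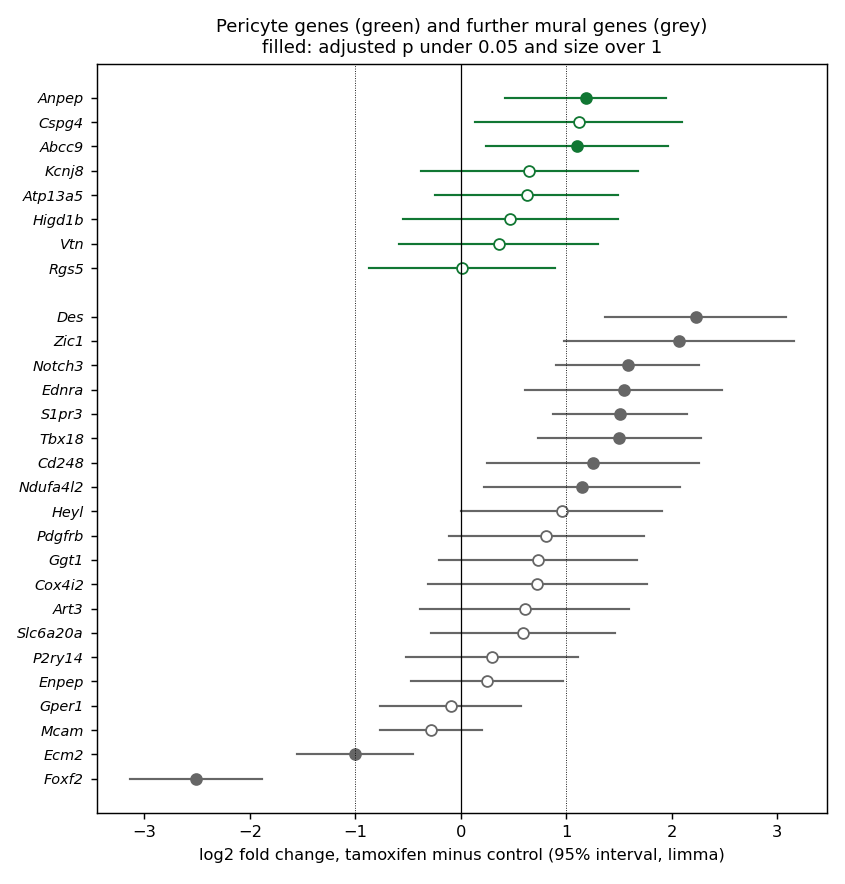
Log2 fold changes (tamoxifen minus control, limma) with 95% intervals for the 8 pericyte genes in green and 20 further genes of mural cells in grey, filled where a gene was called. Anpep and Abcc9 are filled among the pericyte genes, Rgs5 sits at 0.01, and Foxf2 at -2.51 lies farthest to the left.

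To compare levels between genes, the normalized counts were divided by the merged exon length in kilobases. In the control libraries Vtn was highest, with 3874 ± 2069 normalized counts per kilobase (SD, n = 2), followed by Rgs5 with 3477 ± 1188, and their ranges overlapped. Atp13a5 came next with 612 ± 219 and was clear of the genes on either side of it. Abcc9 (289.99 ± 108), Kcnj8 (286 ± 137), Anpep (223 ± 88.1), Cspg4 (207 ± 120) and Higd1b (120.5 ± 42.5) followed, each overlapping its neighbour. In the tamoxifen libraries the order was Vtn (4815 ± 2001), Rgs5 (3627 ± 1802), Atp13a5 (982 ± 514), Abcc9 (643 ± 326), Anpep (505 ± 187), Kcnj8 (463 ± 269), Cspg4 (433 ± 190.1) and Higd1b (178 ± 107). There Rgs5 was clear of Atp13a5 and Cspg4 of Higd1b, while the other neighbours overlapped. Kcnj8 and Anpep exchanged places between the groups, within their overlap in both.

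In the 5 genes whose groups overlapped, the fold between the libraries of a group was larger, in both groups, than the fitted fold between groups, and for Cspg4 this was so in the control group. In the control group the second library exceeded the first by between 1.64-fold (Rgs5) and 2.37-fold (Cspg4), and in the tamoxifen group by between 1.71-fold (Anpep) and 2.47-fold (Higd1b). This comparison was chosen after the values had been seen. A cut of 1.5-fold lies below every one of these folds, so the counts that follow are a description. All 8 genes were over 1.5-fold higher in the second library of both groups. This held for 5.05% of all tested genes (15.3% in the control group alone and 16.4% in the tamoxifen group alone), for 3.22% of the 13668 genes averaging 100 or more normalized counts, for 11 of the 20 further mural genes, for 4 of 10 astrocyte markers and for 0 of 10 endothelial markers. Over all tested genes the median difference between libraries was 0.05 in the control and -0.08 in the tamoxifen group on the log2 scale, against 0.80 and 1.07 for the pericyte genes. The fewest reads behind any of these ratios were 213 (Higd1b in control library 1).

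**Figure D3:**
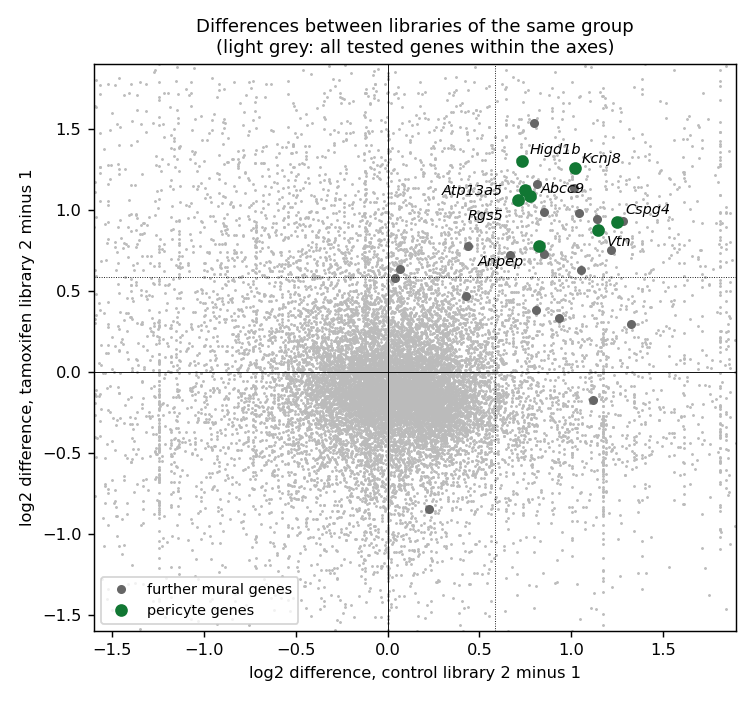
Log2 difference between the second and the first library of the control group (horizontal) and of the tamoxifen group (vertical), with the 8 pericyte genes in green, 20 further mural genes in dark grey, other tested genes in light grey and dotted lines at 1.5-fold. The 8 green points lie together in the upper right, past both dotted lines.

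Summed, the 8 genes came to 32150.4 and 58799 normalized counts without tamoxifen and to 40136 and 80608 with it, or 0.0626%, 0.115%, 0.105% and 0.225% of all normalized counts. Other cell type markers differed between the libraries as well. The sum of the 10 endothelial markers was 963134 and 939654 in the control libraries but 163409 and 82499 in the tamoxifen libraries. There, the library with the higher sum of the 8 genes had the lower endothelial sum. The ratio of the pericyte sum to the endothelial sum was 0.0334 and 0.0626 in the controls and 0.246 and 0.977 under tamoxifen. All 10 astrocyte markers were called higher, with sums of 32637 and 39167 in the control and 169078 and 347698 in the tamoxifen libraries, Slc1a2 being the highest in the tamoxifen libraries and none at 0. Their part in the pericyte values was not tested.

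Because the genes moved together between libraries, each was also divided by Rgs5 of the same library, which removes any scaling of the library. Rgs5 was chosen as divisor after its values had been seen, so these ratios are a description. The ratio of Abcc9 to Rgs5 was 0.153 and 0.160 in the controls and 0.331 and 0.336 under tamoxifen. Anpep gave 0.0411 and 0.0446 against 0.107 and 0.0877. For Cspg4 the ratio was 0.0907 and 0.132 in the controls and 0.247 and 0.225 in the tamoxifen libraries.

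In these 3 genes the mean ratio was 2.13-fold (Abcc9), 2.27-fold (Anpep) and 2.12-fold (Cspg4) that of the controls. Atp13a5 gave 0.166 and 0.170 against 0.251 and 0.262, a span within each group far smaller than that of its normalized counts. The mean ratio was 1.55-fold that of the controls for Kcnj8, 1.53-fold for Atp13a5, 1.38-fold for Higd1b and 1.26-fold for Vtn. All 7 genes had higher ratios in both tamoxifen libraries than in both controls, though Vtn in tamoxifen library 2 stood only 1.03-fold above control library 2, and 33.2% of tested genes did the same. The choice of divisor favours this outcome for the 7 genes.

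**Figure D4:**
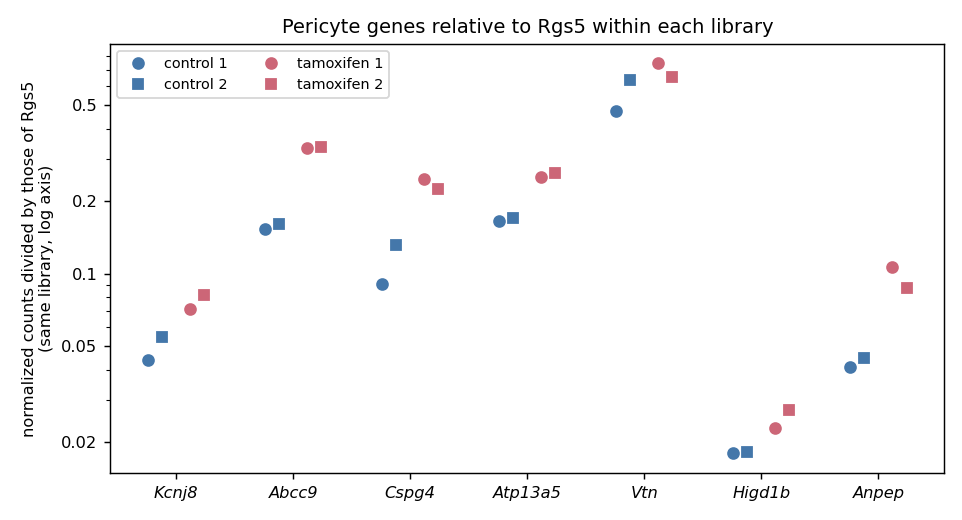
Normalized counts of 7 pericyte genes divided by those of Rgs5 in the same library (log axis), control in blue and tamoxifen in red, circles for the first and squares for the second library. The tamoxifen ratios lie above the control ratios for each gene, by 2.27-fold for the mean of Anpep and by 1.26-fold for Vtn.

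The promoters of Rgs5 and Anpep are printed with the same conventions as those of the channel genes (RefSeq, GRCm38.p6). These pericyte genes had the smallest and the largest fold change in the limma fit without rescaling.
Rgs5 promoter (chr1:169655251-169655500, strand +): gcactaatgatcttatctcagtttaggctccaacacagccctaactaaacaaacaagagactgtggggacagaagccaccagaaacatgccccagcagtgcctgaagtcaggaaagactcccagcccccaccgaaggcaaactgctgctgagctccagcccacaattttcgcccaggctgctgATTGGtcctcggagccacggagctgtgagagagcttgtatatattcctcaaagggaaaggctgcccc
Anpep promoter (chr7:79848211-79848460, strand -): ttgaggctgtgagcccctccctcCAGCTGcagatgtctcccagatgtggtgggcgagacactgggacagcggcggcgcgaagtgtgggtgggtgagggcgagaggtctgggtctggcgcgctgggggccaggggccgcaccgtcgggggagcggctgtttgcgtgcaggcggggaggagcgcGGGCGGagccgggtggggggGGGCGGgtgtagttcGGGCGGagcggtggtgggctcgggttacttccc
Both strands of the 250 bases were searched. The TATA box was searched as TATAAA and the GC box as GGGCGG. The CCAAT box was searched under the letters of its name. The core site of RBPJ, the factor of Notch signaling, was taken as TGGGAA, and that of the TEAD factors as GGAATG, which can overlap it. The forkhead core was TGTTTAC, and CAGCTG stood for one form of the E-box. Rgs5 had a CCAAT box on the opposite strand, 63 to 67 bases before its start, a motif present in 33.8% of 32851 promoters. Anpep had 3 GC boxes, and its GC content was 72.8% against 53.6% for Rgs5. The table held promoters for 7 of the 8 genes, all but Higd1b. Of these 7, GC boxes were found in 3 (32.7% of all promoters), the TEAD core in 3 (12.6%), the RBPJ core in 2 (21.6%), the E-box form in 2 (13.0%), the TATA box in 1 (12.4%), the CCAAT box in 1 and the forkhead core in 0 (3.17%). Abcc9 and Vtn each carried the RBPJ and TEAD letters in 1 overlapping stretch. A match is a description of letters and not evidence of binding.

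The 5 genes whose values over the 4 libraries lay closest to the mean pattern of the 8 pericyte genes were Rtn4rl1, Adap2, Slc6a20a, Ggt5 and Art3. The measure was the Euclidean distance between centred log2 values, from 0.11 to 0.13 for these 5, among the same 13668 genes. The pericyte genes themselves lay between 0.14 (Atp13a5) and 0.69 (Rgs5) from their mean. Slc6a20a, a transporter of proline-like amino acids, and Art3, of the ADP-ribosyltransferase family, were also on the list of further mural genes. Art3 stood at 493 and 996 normalized counts without tamoxifen and at 721 and 1583 with it.

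Of the 20 further genes of pericytes and mural cells, 8 were called higher and 2 lower, where 28.6% and 16.0% of all tested genes were. Their median log2 fold change was 0.77, and it was 0.25 without control library 1, 0.38 without tamoxifen library 2 and 0.30 after quantile normalization, but 1.33 without control library 2 and 1.24 without tamoxifen library 1. Pdgfrb, the receptor that pericytes need for recruitment, stood at 3811 and 7858 normalized counts without tamoxifen and at 6844 and 13475 with it. Its groups overlapped, and the log2 fold change of 0.81 (standard error 0.40, limma adjusted p = 0.113) was not called. Notch3, the Notch receptor of mural cells, had 1793 and 3426 in the controls and 6623 and 8326 in the tamoxifen libraries and was called higher (1.58, standard error 0.29, limma adjusted p = 0.00242).

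The largest rises on the list were those of Des (desmin, an intermediate filament of muscle and mural cells), Zic1 (a zinc finger factor of meninges and brain mural cells) and Notch3, with log2 fold changes of 2.23, 2.07 and 1.58. Des went from 116 and 254 to 861 and 762 normalized counts, and Zic1 from 471 and 819.8 to 1532 and 4448. The lowest values were those of Foxf2 (a forkhead factor that brain endothelial cells also express) at -2.51, Ecm2 at -1.01 and Mcam (CD146, also endothelial) at -0.28, of which Mcam was not called. Foxf2 fell from 11669 and 13632 to 2964 and 1644 normalized counts. The count of higher calls depended on single libraries, being 14 without control library 2, 6 without control library 1 and 0 without either tamoxifen library.

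Of 12 genes for signals between endothelial cells and pericytes, 8 were called lower and 2 higher, against 16.0% and 28.6% of all tested genes. The 10 endothelial markers, all called lower, had a median log2 fold change of -2.94, and their part in the values of endothelial genes on this list, such as Pdgfb and Tek, was not tested. Pdgfb, the endothelial ligand of PDGFR-β, stood at 32749 and 40822 normalized counts without tamoxifen and at 5744 and 2702 with it (log2 fold change -3.21, standard error 0.33, limma adjusted p = 0.000157). Tek, the endothelial receptor of angiopoietins, had a log2 fold change of -3.22, Angpt2 of -2.72, Tgfbr2 of -2.09, Jag1 of -1.59, Tgfb1 of -1.34, Hbegf of -1.09 and S1pr1 of -1.09. Angpt1, the Tek ligand made by mural cells, was called higher, with 26.0 and 40.1 normalized counts in the controls and 431 and 382 in the tamoxifen libraries (3.61, adjusted p = 0.000201 with limma), as was Notch3. Which cells the Angpt1 reads came from was not tested. Cdh2, the cadherin of endothelial-pericyte contacts, had 0.13 and was not called, nor was Pdgfrb.

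Of 10 genes of smooth muscle, the nearest other mural class, 2 were called higher (Actg2 and Cnn1) and 1 lower (Smtn), against 28.6% and 16.0% of all tested genes, with a median log2 fold change of 0.57. Both higher calls rested on few reads. Actg2 had 1 and 2 reads in the controls and 19 and 58 in the tamoxifen libraries. Cnn1 had 8 and 17 against 42 and 110. The groups did not overlap for Mylk (-0.66), Tagln (-1.43), Lmod1 (1.26) and Myocd (1.09), none of which was called. They overlapped for Myl9 (0.43), Acta2 (0.71) and Myh11 (0.03). No gene on the list was at 0 in any library. Its summed level was 21490 to 23706 normalized counts in the control libraries and 9454 to 11305 in the tamoxifen libraries, and Smtn, which endothelial cells also express, made up most of it in the controls, so the sum fell while the median over genes was above 0.

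**Figure D5:**
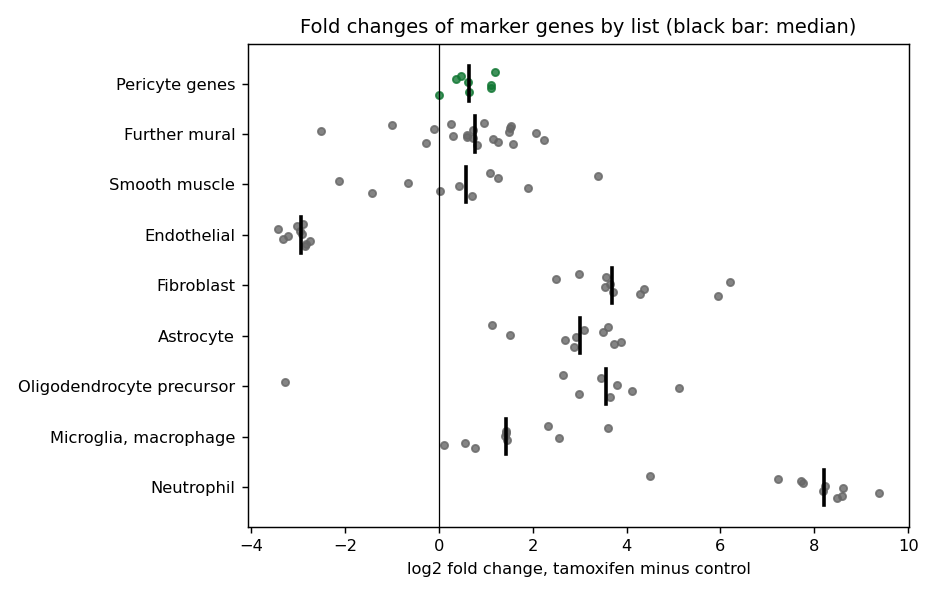
Log2 fold changes (tamoxifen minus control) of each marker gene, by list, with black bars at the list medians. The 8 pericyte genes (green) span 0.01 to 1.18. Medians of other lists are -2.94 (endothelial), 3.68 (fibroblast), 3.01 (astrocyte), 3.56 (oligodendrocyte precursor) and 8.21 (neutrophil). Nearer to the pericyte genes lie the further mural (0.77), smooth muscle (0.57) and microglia and macrophage (1.42) lists, whose genes overlap their span. The lowest astrocyte marker, at 1.13, lies within it too.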

How the data were processed

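RNA-Seq libraries, 2 per group, were analysed. Reads had been aligned by the authors to GRCm39 with STAR 2.7.10a, counted per gene, filtered for low counts and normalized in DESeq2 1.36.0. The libraries were made with a stranded kit. The annotation release, the strand setting of the counting and the low-count limit are not given in the sources used here. What the authors deposited is a normalized count, held here as a signal, equal to the reads of a gene over a factor common to its library. The smallest step of a column gave that factor, and 100% of the deposited values were then whole reads to within 0.01 reads. Columns are named C or A with a number. The labels do not explain these letters: C was taken to stand for control, and A, taken to stand for arteriovenous malformation, for tamoxifen.

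The test was limma 3.58.1 (R 4.3.3) with a mean-variance trend, applied to log2(normalized count + 1) of the 20485 genes averaging 10 or more normalized counts, with Benjamini-Hochberg adjustment over all of them. It was also run on simulated counts in which 200 genes changed. That is far fewer than were called here, so the simulation does not show how the test behaves under such broad changes. For 1 gene, the smallest p that an exact two-sided permutation of 2 against 2 libraries can give is 0.333. The alternatives were other pseudocounts (0.5 and 5), filters (none, or a mean of 100) and scalings (equal totals, quantile), a fit without the trend, a replicate block, counting models on the recovered reads (edgeR 4.0.16, DESeq2 1.42.0), and leaving out each library. Positions and exon lengths are from GENCODE M39, where 24451 of 24873 symbols were found, and promoters from RefSeq.

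The pericyte genes, the lists and the tests were chosen with earlier results of these data known. The text names all 8 pericyte genes. It also names Pdgfrb, Notch3 and the 3 largest rises and falls among further mural genes, the tested relatives, the genes of the signaling and vitronectin lists, the 5 genes nearest in pattern, and the highest gene and any gene at 0 of a marker list. Chosen after the values had been seen were the comparison of libraries within a group, the ratios to Rgs5, and the remaining smooth muscle and precursor genes that are named. The relative Higd1c is not analysed here. One gene of the vitronectin list is not reported here.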

Additional observations from a re-analysis of the deposited data

How the results depend on the processing

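The number of pericyte genes called higher was 2, and 3 (Abcc9, Cspg4 and Anpep) with a pseudocount of 5, a filter at a mean of 100, equal totals, quantile normalization, edgeR, DESeq2 and the replicate block. It was 1 without a filter, 0 without a variance trend, and 0 to 4 when 1 library was left out, being 4 without control library 2 and 0 when any other single library was left out. The number called lower was 0 under every alternative. The median log2 fold change of the pericyte genes ranged from 0.04 without tamoxifen library 2 to 1.23 without tamoxifen library 1, and equal totals gave 1.11. That scaling also moved the median of all genes from 0.05 to 0.52, leaving the pericyte genes 0.59 above it, against 0.58 before. Quantile normalization moved the median of all genes to -0.23 and that of the pericyte genes to 0.96, a gap of 1.19. The size of the gap thus depended on the scaling. Of all calls, 64.1% were higher, against 79.7% with equal totals and 45.6% after quantile normalization. After quantile normalization, Higd1b had a log2 fold change of -0.25 and Rgs5 of 0.79. Leaving out 1 library moved Higd1b from -0.18 to 1.12, Vtn from -0.21 to 0.93 and Rgs5 from -0.52 to 0.54. Among the further mural genes, 8 were called higher, against 5 after quantile normalization, 4 without a trend and 0 to 14 with 1 library left out. There 2 were called lower, against 1 with equal totals, without a trend, with edgeR and with DESeq2, and 1 to 2 with 1 library left out. All genes called came to 9151, against 5934 with the filter at a mean of 100 and 4147 to 9700 with 1 library left out. Fits with 1 library in a group assume that it varies like the others.

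The replicate numbers were not taken as pairing. Across 20485 genes the difference between the second and the first library had a correlation of 0.03 between the groups, although the pericyte genes shared its direction. With the replicate block, 9525 genes and 3 pericyte genes were called, Cspg4 being the one added. The causes of these changes were not tested. With 2 libraries per group, the spread between libraries and not the number of reads sets the width of the intervals given for these genes.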
